A study of Mus musculus with 22 samples.

Results

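Type I interferon response genes are the genes that a cell switches on when interferon alpha or beta binds its surface receptor. The receptor chains IFNAR1 and IFNAR2 activate the kinases JAK1 and TYK2, which phosphorylate STAT proteins, STAT2 among them, and these join IRF9 to form the complex that binds response elements in the promoters of these genes. Their products sense viral RNA and DNA, bind or degrade it, block viral entry and release, or attach the ubiquitin-like protein ISG15 to other proteins, and B cells carry a low standing level of many of them. The 46 genes described here were a list of symbols of known interferon-induced genes, with no measured value in the rule, out of 29294 genes found in the deposited tables. All 46 were present in each of 3 tables (Ifit3b under its older symbol I830012O16Rik, matched by its Ensembl identifier). All 46 passed a filter of a mean normalized count of at least 10 in experiment 1 and in experiment 2, and 39 passed it in culture.

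The study sequenced RNA of B220+CD93+ immature B cells from mouse spleen, in 22 libraries that fall into 7 groups. The depleted groups were Tcrd-GDL mice, a strain in which γδ T cells carry the receptor for diphtheria toxin. They were given 2 injections of 15 ng diphtheria toxin (DTx) per g body weight, 48 h apart, and analysed on day 8 after the first (3 libraries in experiment 1, 2 in experiment 2). The toxin control of experiment 2 was Tcrd-H2BeGFP mice, whose γδ T cells carry a nuclear fluorescent reporter and not the toxin receptor, given the same DTx course (3 libraries). The untreated groups were Tcrd-GDL mice without toxin (3 libraries in experiment 1, 5 in experiment 2). For the culture groups, Tcrd-H2BeGFP mice without toxin gave immature B cells that were cultured together with γδ T cells (3 libraries) or alone (3 libraries). The labels used here give no ages. The toxin control and the untreated mice differ in both strain and toxin, which cannot be told apart. The depleted and the toxin control mice differ in both strain and γδ T cells, which cannot be told apart either. The depleted and the untreated mice differ in both toxin and γδ T cells, which cannot be told apart between these groups, and experiment 1 had no toxin control.

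Depth per library ran from 9794413 to 20343954 reads (experiment 1), from 22022330 to 36840455 (experiment 2) and from 17505909 to 28729574 (culture). Cd93, a marker used in the sort, lay at 601 to 828 normalized counts over the libraries of experiment 1. In experiment 2 it had 1757, 2200 and 2290 in toxin control libraries, above 905 to 1409 in the other 7. Depleted replicate 1 of experiment 1 stood apart: the small RNA Gm23935 took 28.7% of its reads, against 16.1% to 20.4% in the other 5 libraries, and its Xist was 3.06, against 9304 to 10639. The Y-linked gene Ddx3y had 569 in depleted 1, 40.0 in depleted 2 and 1.68 in depleted 3, against 0 in each untreated library. By these 2 genes depleted 1 was male and the untreated libraries were female, so depleted 1 differs from them in sex as well. The part of sex in the members' values was not tested. Depleted replicate 4 of experiment 2 stood apart for the interferon response genes themselves, as described below. Results that rest on either library are given with and without it.

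Promoters of the members were searched for a short motif, whose matches are a description and not shown to be sites of binding. The motif GAAA, any 2 bases, then GAAA, the core of the interferon-stimulated response element, was searched on both strands from 250 bases before to 50 after each start in RefSeq's GRCm38.p6 promoters. It was found in 15 of the 34 members that have an entry (44.1%), against 1079 of 27025 genes in the table (3.99%) and 349 of the 8779 genes tested in experiment 2 that have one (3.98%). The 8 promoter stretches of 80 bases below were picked from those that hold the motif and belong to members named in the results. Rsad2, Stat2, Oas1a and Trim30a also hold the motif before the start and are not shown. Capitals mark the motif on either strand, overlapping copies joined, and each stretch reads 5′ to 3′ on the gene's own strand.
Isg15 (chr4:156200847-156200926, minus strand): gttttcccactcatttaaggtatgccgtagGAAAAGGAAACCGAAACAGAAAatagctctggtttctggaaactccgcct
Bst2 (chr8:71537556-71537635, minus strand): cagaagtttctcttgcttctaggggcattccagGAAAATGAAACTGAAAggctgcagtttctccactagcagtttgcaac
Ifit1 (chr19:34640759-34640838, plus strand): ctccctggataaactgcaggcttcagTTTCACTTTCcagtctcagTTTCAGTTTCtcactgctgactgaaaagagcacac
Oas3 (chr5:120777691-120777770, minus strand): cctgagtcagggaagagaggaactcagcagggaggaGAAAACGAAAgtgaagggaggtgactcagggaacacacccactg
Slfn5 (chr11:82951911-82951990, plus strand): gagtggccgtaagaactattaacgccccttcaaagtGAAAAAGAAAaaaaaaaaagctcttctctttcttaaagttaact
Slfn8 (chr11:83020815-83020894, minus strand): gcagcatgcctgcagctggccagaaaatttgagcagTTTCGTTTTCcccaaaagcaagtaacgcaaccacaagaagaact
Ifit3 (chr19:34583354-34583433, plus strand): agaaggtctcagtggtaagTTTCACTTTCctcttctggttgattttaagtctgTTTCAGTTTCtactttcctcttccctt
Ifit3b (chr19:34607750-34607829, plus strand): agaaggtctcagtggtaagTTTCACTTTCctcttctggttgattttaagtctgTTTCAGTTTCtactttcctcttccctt
Isg15 held 3 overlapping copies, the nearest 66 bases before the start, and Bst2 held 2 overlapping copies. The stretches of Ifit3 and Ifit3b, neighbouring copies on chromosome 19, were identical at 80 of 80 bases. Their transcripts were also alike: 51.2% of the 50-base words of Ifit3 transcripts also occur in Ifit3b, so the split of reads between them is uncertain. The same holds for Oas1a (57.6%, shared with Oas1g), and 4 more members shared 11.6% to 19.0% of their words with another gene (Ly6a, Slfn8, Herc6 and Rtp4).

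In experiment 2 the members lay between the 39.1 and the 99.4 percentile of protein-coding genes with reads, per kb of exon. Per kb of exon, Ifi27l2a, a small mitochondrial membrane protein gene, was the highest member in experiment 2 at 7200 normalized counts per kb, and Ly6e, a surface protein gene, followed at 4842 per kb. Ifi44 was the lowest at 7.26 per kb. The median member stood at the 75.3 percentile of protein-coding genes with reads in that table on this per-kb scale.

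The first comparison sets depleted cells beside untreated cells of the same strain, which differ in toxin as well as in γδ T cells. In experiment 1 the mean level of the 46 members, as log2(normalized count + 1), was 8.34, 7.87 and 8.00 in depleted libraries 1 to 3, against 8.04, 8.34 and 8.32 in untreated libraries 1 to 3. Depleted 2 and 3 were the lowest of the 6 libraries, and depleted 1 was level with the highest untreated library, so the groups overlap. In the plot of mean level by library this is the wide spread of the depleted points. Some stage markers split in the same way: Rag1, the recombinase of early B cells, had 42.8, 13.7 and 8.42 in depleted libraries 1 to 3, against 38.8, 32.7 and 53.4 in untreated ones. Ighd, the IgD heavy chain of more mature B cells, had 5229, 12459 and 9974 in depleted libraries, against 7611, 6198 and 8072 in untreated ones. Other stage markers did not split so. Myb had 789, 382 and 564 in depleted libraries, against 995, 891 and 983 in untreated ones. Sox4 had 356, 364 and 401, against 480, 477 and 456. Cr2 was highest in depleted 1, with 7430, 3779 and 3693 in depleted libraries, against 3485, 3132 and 3413. Of the markers of other cells, 8 of 8 macrophage genes and 7 of 8 common T cell genes tested had negative log2 fold changes in depleted cells, none past the test, and the part of stage and of these cells in the members' values was not tested.

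**Figure D1:**
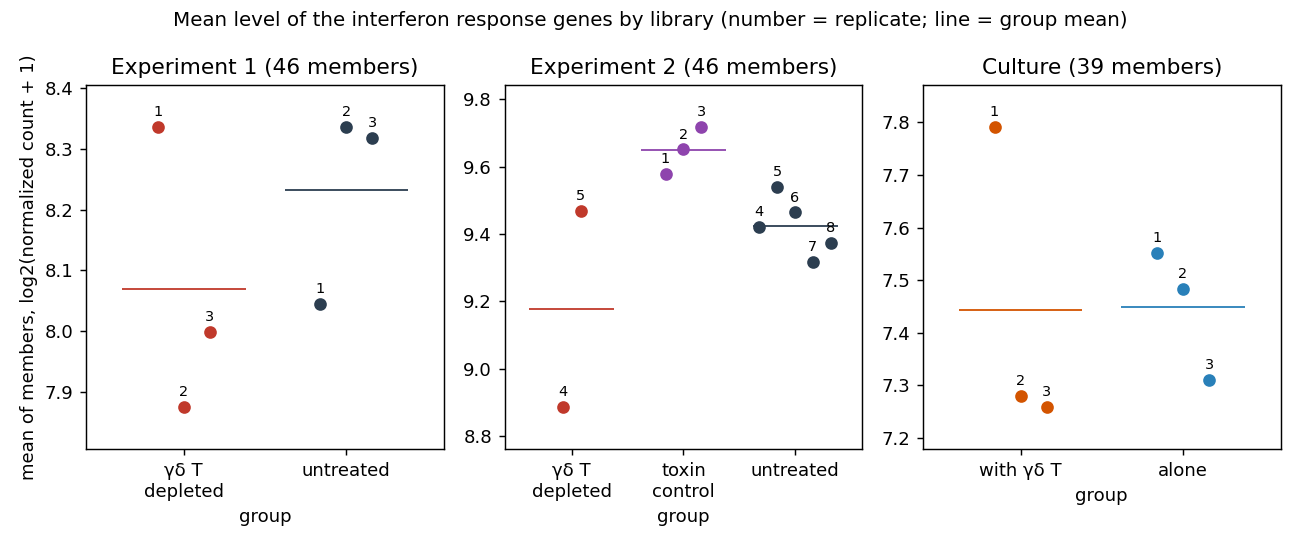
Mean log2(normalized count + 1) of the interferon response genes in each library (points, numbered by replicate) with the group mean (line), for experiment 1, experiment 2 and culture, each table on its own axis. Depleted 4 of experiment 2 (8.89) lies far below the other 9 libraries (9.32 to 9.72), and the 3 toxin control libraries (9.58 to 9.72) lie highest.

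In the test across all 11701 genes of experiment 1 (limma, adjusted p under 0.05), 0 of 46 members passed, and so did 0% of all genes. Neither edgeR nor DESeq2 called a member. At an unadjusted p under 0.05, 8 members were lower and 1 was higher in depleted cells, beside 8.83% of all genes in either direction. The direction was uneven: 36 of 46 members (78.3%) had a negative log2 fold change, against 52.0% of all genes, with a median of -0.19 for the members and -0.01 for all genes. The groups did not overlap for 8 members that were lower in depleted cells (7.88% of all genes were lower in this way) and for 1 that was higher (7.29% of all genes).

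The lower ones were the schlafen Slfn8, the 2'-5' oligoadenylate synthetase-like Oasl2, the ubiquitin ligase Dtx3l, the RNA sensor Ddx58 (RIG-I), the ligase Trim25 that activates it, the nuclear body protein Sp100, the RNA editor Adar and the coactivator Helz2. Slfn8 (chr11:83002158-83020810, minus strand, GRCm38) had 511, 484 and 568 normalized counts in depleted libraries, against 660, 679 and 737 in untreated ones. Its log2 fold change was -0.41 ± 0.10 (SE), with an adjusted p of 0.415 in limma, the lowest of any member. Dtx3l had 957, 1009 and 948 in depleted libraries, against 1181, 1231 and 1257 in untreated ones, and its log2 fold change was -0.33. Ddx58 had 843, 822 and 850 in depleted libraries, against 1000, 969 and 1042 in untreated ones. In these 3 genes depleted library 1 went with the other depleted libraries.

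Most other members did not do so. Zbp1, a sensor of Z-form nucleic acid that triggers cell death, had 398, 215 and 251 in depleted libraries, against 308, 397 and 372 in untreated ones. Mx1, a GTPase that blocks influenza virus, had 219, 107 and 104 in depleted libraries, against 94.8, 166 and 125 in untreated ones. Isg15 had 64.2, 24.2 and 26.1 in depleted libraries, against 26.8, 43.6 and 22.0 in untreated ones. In all 3 genes depleted 1 was level with or above the highest untreated library and its 2 fellow depleted libraries were not. Over the 46 members, depleted 1 was above all 3 untreated libraries for 15 members (32.6%, against 31.5% of all genes), depleted 2 for 2 (35.7% of all genes) and depleted 3 for 2 (30.8% of all genes). Depleted 1 was below all 3 untreated libraries for 12 (34.9% of all genes), depleted 2 for 30 (35.3% of all genes) and depleted 3 for 26 (29.9%).

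**Figure D2:**
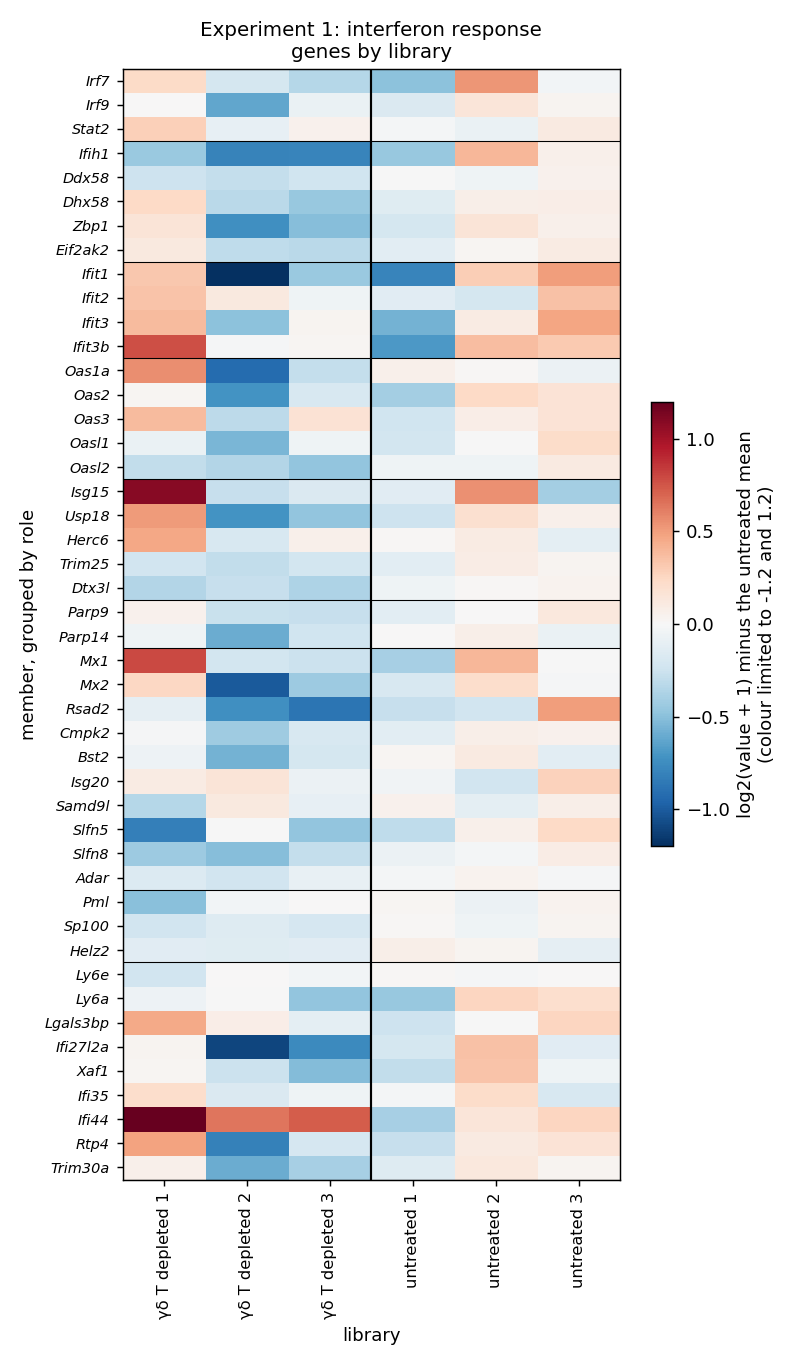
Each member's log2(normalized count + 1) in the 6 libraries of experiment 1 minus the mean of the 3 untreated libraries (colour, limited to -1.2 and 1.2), with members grouped by role. Depleted 2 and depleted 3 are lower (blue) over most rows, and depleted 1 is mixed.

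Without depleted 1, 8 members passed as lower in depleted cells and 0 as higher, beside 5.28% of all genes lower and 4.09% higher. These were Zbp1, Trim30a, Slfn8, Rsad2, Ifi27l2a, Parp14, Dtx3l and Mx2, and the median over the members was -0.27. Without depleted 2 the median was -0.11 and 0 members passed. Ifi44 was the member with the highest log2 fold change (0.87 ± 0.39 SE, adjusted p = 0.564 in limma) at few reads: 24.5, 15.8 and 16.8 normalized counts in depleted libraries, against 7.16, 10.9 and 11.9 in untreated ones, which are 16, 15 and 20 reads against 12, 9 and 14.

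In experiment 2 the mean level of the members was 8.89 and 9.47 in depleted libraries 4 and 5. It was 9.58, 9.65 and 9.72 in toxin control libraries 1 to 3, against 9.42, 9.54, 9.46, 9.32 and 9.37 in untreated libraries 4 to 8. Depleted 4 was the lowest library, depleted 5 lay inside the untreated range, and the 3 toxin control libraries lay above every other library. The 3 comparisons of experiment 2 share libraries, so they are not independent of each other.

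The pair of depleted libraries did not act alike. Depleted 4 was the lowest of all 10 libraries for 34 of 46 members (73.9%), against 19.6% of all genes tested. It was lower than depleted 5 for 44 of 46 members (49.6% of all genes), by a median log2 difference of -0.50. It fell below all 5 untreated libraries for 35 members (25.9% of all genes), and depleted 5 did so for 7 (17.8% of all genes). The gap was widest at Ifit1, an RNA-binding protein gene, with 34.0 in depleted 4 and 140 in depleted 5, and at Rsad2, the antiviral enzyme viperin, with 109 and 303. Bst2, the tether that holds virions at the cell surface, and Stat2 were higher in depleted 4 than in depleted 5: Bst2 had 274 and 226, and Stat2 had 1042 and 872.

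**Figure D3:**
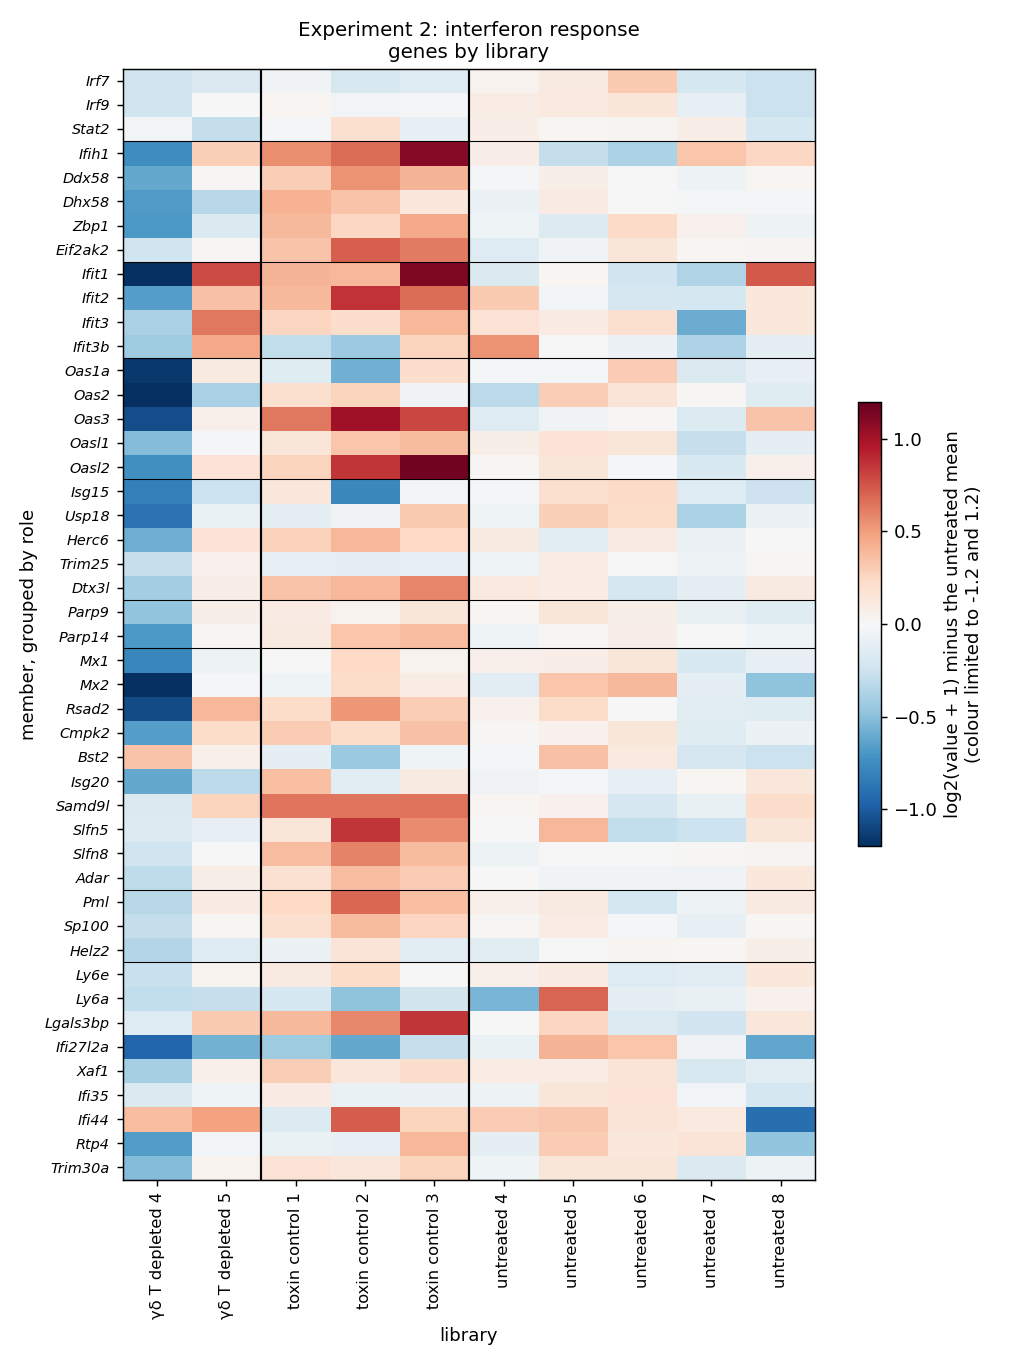
Each member's log2(normalized count + 1) in the 10 libraries of experiment 2 minus the mean of the 5 untreated libraries (colour, limited to -1.2 and 1.2), with members grouped by role. Depleted 4 is lower (blue) for most members, depleted 5 is not, and the toxin control columns are higher (red) for the RNA sensors, Oas3, Oasl2, Samd9l and the schlafens.

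Against untreated cells of the same strain, 0 of 46 members passed the test in depleted cells, beside 0.299% of all 13364 genes (0.172% lower and 0.127% higher). At an unadjusted p under 0.05, 11 members were lower and 0 higher, beside 9.79% of all genes in either direction. EdgeR called 0 members, and DESeq2 called 1, Ifi27l2a, as lower. Of the 46 members 40 had a negative log2 fold change (87.0%, against 50.5% of all genes), with a median of -0.22, against -0.00 for all genes. Without depleted 4 the median was 0.03 and 0 members passed. Without untreated 8, 1 member passed as lower, Ifi27l2a (0.217% of all genes). Without depleted 5, 16 members passed as lower (2.64% of all genes did), with a median of -0.50, and in that fit depleted 4 is a lone sample whose spread is borrowed from the remaining groups.

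The groups did not overlap for 6 members that were lower in depleted cells (6.56% of all genes): Oas2, Isg15, the RIG-I-like regulator Dhx58, the exonuclease Isg20, Zbp1 and Helz2. For 1 member, Ifi44, depleted cells were higher without overlap (5.78% of all genes). Oas2, an enzyme that makes the messenger that activates RNase L, had the lowest fold. It had 57.0 and 147 in depleted libraries, against 154, 237, 216, 195 and 175 in untreated ones, a log2 fold change of -1.07 ± 0.27 (SE, adjusted p = 0.138 in limma). Zbp1 had 486 and 694 in depleted libraries, against 756, 701, 918, 815 and 753 in untreated ones, with a log2 fold change of -0.43 and an adjusted p of 0.241 in limma. Dhx58 had 230 and 293 in depleted libraries, against 352, 396, 370, 366 and 362 in untreated ones. For Oas2 and Zbp1 depleted 5 lay just under the lowest untreated library and depleted 4 well under it, and for Dhx58 both lay well under it.

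Ifi27l2a had 2005 and 2621 in depleted libraries, against 3687, 5168, 4907, 3776 and 2529 in untreated ones, with a log2 fold change of -0.76 ± 0.20 (SE, adjusted p = 0.155 in limma). Untreated 8 was close to the depleted libraries for this gene. Mx2, a relative of Mx1, had 172 and 450 in depleted libraries, against 417, 578, 600, 426 and 329 in untreated ones. Its depleted libraries stood on either side of the lowest untreated one.

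Ifi44 was higher and Helz2 lower in depleted cells with no overlap in both experiments, and both were picked after their values were seen. Of all genes, 7.88% were lower without overlap in experiment 1 and 6.56% in experiment 2, and 7.29% and 5.78% were higher. The share of all genes that did so in both experiments was not counted, so no replication is read from these 2 genes. In experiment 2 Ifi44 had 49.3 and 53.6 in depleted libraries, against 47.3, 47.9, 42.4, 41.4 and 19.8 in untreated ones, so that the gap to the highest untreated library was small. Helz2 had 4533 and 5199 in depleted libraries, against 5287, 5791, 5923, 5869 and 6082 in untreated ones. In experiment 1 Helz2 had 3290, 3264 and 3281 in depleted libraries, against 3802, 3699 and 3359 in untreated ones. Neither gene passed the test in either experiment: adjusted p for Ifi44 was 0.564 in experiment 1 and 0.773 in experiment 2, and for Helz2 it was 0.652 and 0.390 (limma). The 8 members that passed as lower in experiment 1 without depleted 1 had negative log2 fold changes in experiment 2 with all libraries. So did 87.0% of the members and 50.5% of all genes. The values were -0.76 (Ifi27l2a), -0.72 (Mx2), -0.43 (Zbp1), -0.34 (Rsad2), -0.34 (Parp14), -0.24 (Trim30a), -0.17 (Dtx3l) and -0.12 (Slfn8), and 0 passed. This list was taken after the libraries' values were seen.

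The comparison with the toxin control sets depletion beside the same toxin course in mice of another strain, whose γδ T cells lack the toxin receptor. Strain and depletion cannot be told apart in it. In depleted cells 16 of 46 members passed as lower than in the toxin control and 0 as higher (34.8%), beside 4.49% of all genes lower and 4.58% higher, or 9.07% in either direction. The median log2 fold change of the members was -0.52, against -0.00 for all genes, and 42 members were negative. The groups did not overlap for 26 members that were lower in depleted cells (20.9% of all genes). For 1 member, Bst2, depleted cells were higher without overlap (21.1% of all genes): it had 274 and 226 in depleted libraries, against 201, 159 and 209 in toxin control ones (adjusted p = 0.218 in limma).

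Of the nucleic acid sensors 5 of 5 passed as lower in depleted cells (Ifih1, Ddx58, Dhx58, Zbp1 and Eif2ak2). Ddx58, which detects RNA with a 5' triphosphate, had 1504 and 2328 in depleted libraries, against 2830, 3349 and 3048 in toxin control ones, with a log2 fold change of -0.71 ± 0.14 (SE, adjusted p = 0.0080 in limma). Dhx58 had 230 and 293 in depleted libraries, against 493, 469 and 402 in toxin control ones (log2 fold change -0.80, adjusted p = 0.0060 in limma). Zbp1 (chr2:173206612-173218923, minus strand) had 486 and 694 in depleted libraries, against 1029, 934 and 1076 in toxin control ones (log2 fold change -0.80, adjusted p = 0.0067 in limma). Every depleted library was below every toxin control library for these genes.

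Of the 5 members of the OAS family, Oas2, Oas3 and Oasl2 passed. Oas3 had the largest negative log2 fold change of all members, -1.32 ± 0.30 (SE, adjusted p = 0.017 in limma), with 37.3 and 82.8 in depleted libraries, against 124, 162 and 139 in toxin control ones. Among the antiviral effectors 3 of 10 passed. Samd9l, a growth-restraining antiviral factor, had 2570 and 3493 in depleted libraries, against 4517, 4529 and 4550 in toxin control ones (log2 fold change -0.60, adjusted p = 0.014 in limma). Slfn8 had 1272 and 1509 in depleted libraries, against 1943, 2267 and 1954 in toxin control ones (log2 fold change -0.56, adjusted p = 0.0068 in limma). The third was Adar. The ligase Dtx3l, the ADP-ribosyltransferase Parp14, the nuclear body genes Pml and Sp100, and Ifit2 also passed, with log2 fold changes between -0.80 and -0.41.

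The signal carriers and several classical members did not pass. Irf7, the factor that amplifies interferon production, had 470 and 492 in depleted libraries, against 539, 485 and 498 in toxin control ones. Stat2 had 1042 and 872 in depleted libraries, against 1051, 1211 and 992 in toxin control ones. The adjusted p was 0.793 for Irf7, 0.371 for Stat2 and 0.592 for Irf9 in limma. Isg15 had 52.6 and 78.1 in depleted libraries, against 103, 54.3 and 91.6 in toxin control ones, and the groups overlap. Usp18, the protease that removes ISG15 and damps the receptor, had 182 and 320 in depleted libraries, against 311, 329 and 419 in toxin control ones. Ifit3 had 240 and 489 in depleted libraries, against 377, 365 and 416 in toxin control ones, with a depleted library at either end. Mx1 had 311 and 514 in depleted libraries, against 535, 633 and 552 in toxin control ones, without overlap but with an adjusted p of 0.078 in limma. Ly6a, the surface protein Sca-1, had 909 and 917 in depleted libraries, against 965, 798 and 956 in toxin control ones.

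Counts in this comparison depended on the fit and on single libraries. With only the depleted and toxin control libraries in the fit, 6 members passed as lower (Zbp1, Ddx58, Samd9l, Slfn8, Dhx58 and Eif2ak2; 1.54% of all genes), at the same median of -0.52. Without depleted 4, 0 members passed, beside 0.12% of all genes lower, with a median of -0.15. Without depleted 5, 30 passed as lower, beside 10.6% of all genes. Without toxin control 2, 4 members passed (Zbp1, Ddx58, Slfn8 and Dhx58; 0.823% of all genes lower), and without toxin control 3, 8 did (1.77%). Depleted 5 alone was below all 3 toxin control libraries for 27 of 46 members, against 30.2% of all genes, and depleted 4 for 41, against 37.7% of all genes.

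Toxin control cells were also higher than untreated cells. In them 15 of 46 members passed as higher and 0 as lower (32.6%), beside 7.32% of all genes higher. The median log2 fold change of the members was 0.27, against 0.00 for all genes, and 35 members were positive. The groups did not overlap for 19 members that were higher in toxin control cells (11.6% of all genes) and for 1 that was lower, Trim25 (11.7% of all genes).

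Samd9l (chr6:3372257-3399572, minus strand) had the smallest p. It averaged 4532 ± 16.9 in toxin control cells and 2906 ± 311 in untreated cells (SD, n = 3 and n = 5), with single untreated values of 2940, 2995, 2522, 2724 and 3351. Its log2 fold change was 0.65 ± 0.10 (SE, adjusted p = 0.0029 in limma). Slfn8 averaged 2055 ± 184 in toxin control cells and 1504 ± 37.2 in untreated cells (log2 fold change 0.45, adjusted p = 0.0058 in limma). Eif2ak2, the kinase PKR that stops translation on double-stranded RNA, averaged 657 ± 85.2 in toxin control cells and 444 ± 33.7 in untreated cells (log2 fold change 0.56, adjusted p = 0.0076 in limma). No untreated library reached the lowest toxin control library for these genes.

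The largest positive log2 fold changes among members were those of Oas3 (0.82, adjusted p = 0.033 in limma) and Ifih1 (0.77, adjusted p = 0.041 in limma), the sensor MDA5 of long double-stranded RNA. Ifih1 had 156, 169 and 226 in toxin control libraries, against 112, 86.4, 81.1, 134 and 126 in untreated ones. Oasl2 (0.76), Ifit2 (0.64), the secreted glycoprotein gene Lgals3bp (0.61), Slfn5 (0.52), Dtx3l (0.44), Pml (0.43), Ddx58 (0.41), Zbp1 (0.36), Adar (0.29) and Sp100 (0.28) also passed on the log2 fold scale. By role, 4 of 5 sensors, 4 of 10 effectors, 2 of 3 nuclear body genes and 2 of 5 OAS genes passed, and 0 of 3 transcription factors did. Irf7, Irf9 and Stat2 had log2 fold changes of -0.13, -0.01 and 0.02. The lowest log2 fold changes were those of Ifi27l2a (-0.44, adjusted p = 0.097 in limma) and Ly6a (-0.30, adjusted p = 0.276 in limma).

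This count also depended on single libraries. Without toxin control 2, 1 member passed (Samd9l; 0.569% of all genes higher), and without toxin control 3, 3 did (Samd9l, Slfn8 and Eif2ak2; 2.41%). Without untreated 4 or untreated 5, 9 passed (5.13% and 4.5% of all genes higher), without untreated 6, 7 did (3.41%), and without untreated 7, 6 did (4.15%). The median over the members stayed between 0.19 and 0.27 over the fits that leave out 1 library.

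**Figure D4:**
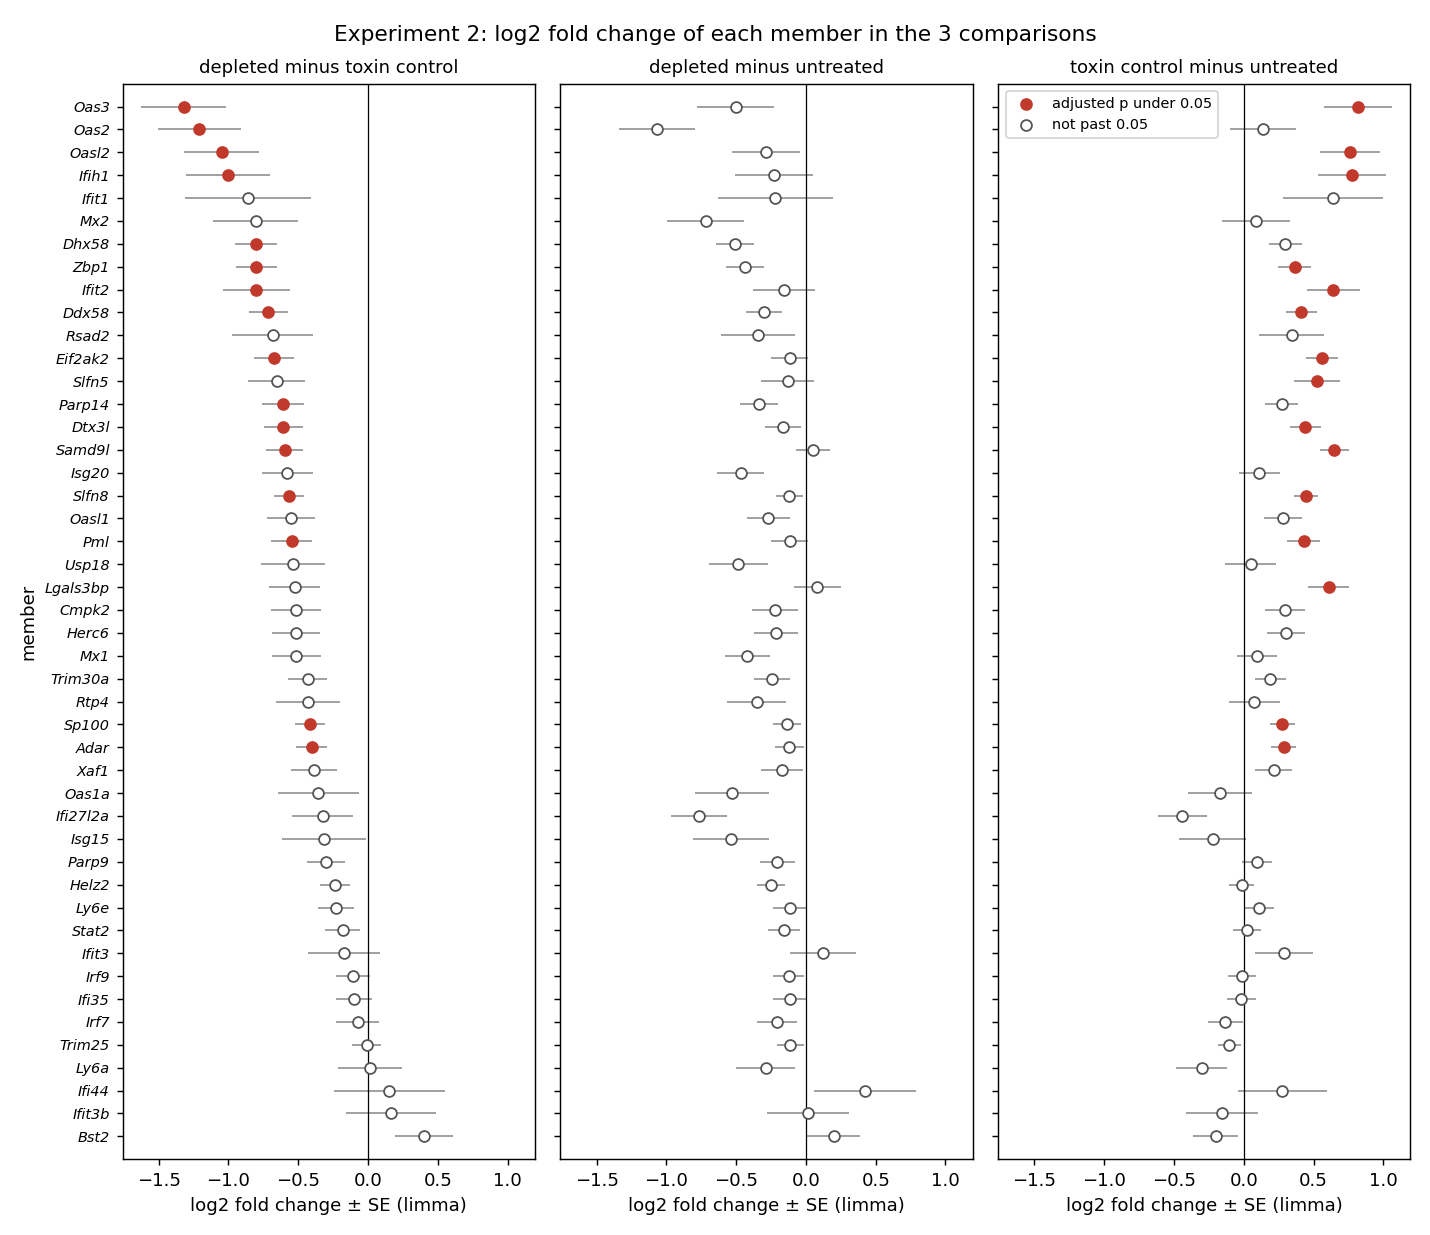
Log2 fold change ± SE (limma) of each member in the 3 comparisons of experiment 2, with members sorted by the first and filled points where the adjusted p is under 0.05. Filled points number 16 in depleted minus toxin control, 0 in depleted minus untreated and 15 in toxin control minus untreated.

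The motif did not mark the members that passed here: it was present in 6 of 14 members called higher that have a promoter entry (42.9%) and in 9 of 20 that were not called (45.0%). Oas3, Slfn5 and Slfn8, whose stretches are printed above, were called, whereas Isg15, Bst2, Ifit1, Ifit3 and Ifit3b were not.

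Other markers moved with the toxin control. The summed level of 14 common T cell genes was 1695 to 2523 in toxin control libraries, against 720 to 954 in untreated 4 to 7 and 2066 in untreated 8, and was 801 and 1067 in depleted libraries. In the toxin control 8 of 14 of these genes passed as higher than in untreated cells, and none was at 0 in a whole group. Untreated 8, with T cell transcripts in the toxin control range, was below all 3 toxin control libraries for 35 of 46 members and for 29.7% of all genes. It was so for each of the 15 called members, and for 89.8% of all genes called higher, which the call itself favours. With the T cell level as a term in the fit, chosen after seeing the data, 0 members passed in toxin control against untreated (0.0374% of all genes higher) and 0 in depleted against toxin control (0.0374% of all genes lower). In depleted against untreated cells that fit called 1 member, Ifi27l2a, as lower (0.314% of all genes). With the term the median log2 fold change of the members was 0.24 in toxin control against untreated cells (0.27 without it). In depleted cells against the toxin control it was -0.44 (-0.52 without it). Outside the toxin control only untreated 8 had a T cell level in the toxin control range, so this fit can hardly separate that level from the group. No conclusion is drawn from the fit. NK cell genes summed to 169 to 269 in depleted libraries and 404 to 631 in toxin control ones, against 174 to 703 in untreated ones. Macrophage genes summed to 1056 to 1427 in depleted libraries and 1316 to 2023 in toxin control ones, against 903 to 1854 in untreated ones, and dendritic cell genes to 2661 to 2729 and 2988 to 3207, against 2048 to 3052. Such sums are weighted to the highest genes. In depleted cells against the toxin control, 6 of 9 dendritic cell genes tested had positive log2 fold changes and 3 negative ones (median 0.87). Tcf4 passed as lower. Against untreated cells 6 were positive and 3 negative (median 0.54), and 0 passed.

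Depleted 4 stood apart in some of these markers, which were chosen after their values were seen. Siglech, a marker of plasmacytoid dendritic cells, had 274 and 115 in depleted libraries and 44.4 to 62.9 in toxin control ones, against 17.5 to 157 in untreated ones. Lyz2, the lysozyme gene of macrophages, had 143 and 241 in depleted libraries and 539 to 864 in toxin control ones, against 227 to 941 in untreated ones. Nkg7, a gene of cytotoxic cells, had 0 and 29.2 in depleted libraries and 45.1 to 72.6 in toxin control ones, against 11.2 to 42.2 in untreated ones. Lyz2 and Nkg7 passed as lower in depleted cells than in the toxin control (adjusted p = 0.022 and 0.043 in limma), and Siglech did not pass (adjusted p = 0.097). Most macrophage genes did not follow Lyz2: against the toxin control 6 of 9 tested had positive log2 fold changes and 3 negative ones (median 0.20). Against untreated cells 7 were positive and 2 negative (median 0.28). Of the NK cell genes tested, 7 were negative and 1 positive against the toxin control (median -1.35).

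Genes of B cell identity and stage moved as well. Of 11 immature B cell identity genes tested, 4 passed as lower in depleted cells than in the toxin control. These were Cd93, Ptprc, Ebf1 and Cd24a, and 10 genes were negative and 1 positive (median -0.39). In the toxin control against untreated cells 3 passed as higher (Cd93, Ebf1 and Ptprc), with 7 positive and 4 negative (median 0.04). In depleted against untreated cells 0 passed, with 10 negative and 1 positive (median -0.10). The adjusted p of Cd93 in limma was 0.0060 for depleted cells against the toxin control and 0.0023 for the toxin control against untreated cells. Rag1 had 36.2 and 52.5 in depleted libraries and 611, 726 and 581 in toxin control ones, against 210, 299, 94.8, 171 and 169 in untreated ones. Ighd had 21464 and 15303 in depleted libraries and 10184, 11746 and 10011 in toxin control ones, against 9662 to 12541 in untreated ones. In depleted against untreated cells 1 of 8 stage genes passed as higher (Ighd) and 3 as lower (Rag1, Mki67 and Myb). Depleted 4 was the lowest of the 10 libraries for Rag1 and the highest for Ighd. In these bulk samples fewer cells of a type and less RNA per cell cannot be told apart. The part of the other cells' markers, of the B cell identity genes and of stage in the members' differences was not tested. That of T cell transcripts was not tested beyond the T cell term, which can hardly separate it from the group.

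The rest of the pathway was read from lists. Of the receptor and JAK-STAT chain, Stat3, Jak1 and Irf2 passed as higher in the toxin control than in untreated cells. Jak1 averaged 7999 ± 654 in toxin control cells and 6180 ± 480 in untreated cells (adjusted p = 0.012 in limma).

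The chains of the type I receptor, Ifnar1 and Ifnar2, passed in no comparison. Ifnar1 had 2715 and 2872 in depleted libraries and 2693, 2860 and 2665 in toxin control ones, against 2811, 2942, 2482, 2567 and 2517 in untreated ones. Ifnar2 ran from 665 to 802 over the same 10 libraries, and Tyk2 from 581 to 861. Irf1, a factor induced by both interferon types, had log2 fold changes between -0.35 and 0.02 in experiment 2 with no call. Among the brakes of the pathway, Socs1, which inhibits JAK kinases, was lower in depleted cells than in the toxin control. It had 87.7 and 100 in depleted libraries, against 166, 155 and 174 in toxin control ones (log2 fold change -0.80, adjusted p = 0.021 in limma).

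Of genes that act upstream of interferon, Tlr9, the DNA-sensing receptor of B cells, was lower in depleted cells than in the toxin control (log2 fold change -0.73, adjusted p = 0.013 in limma). It was higher in the toxin control than in untreated cells (0.43, adjusted p = 0.031 in limma). Irf3, which starts interferon transcription, was lower in the toxin control than in untreated cells (-0.55, adjusted p = 0.011 in limma). Interferon genes themselves had almost no reads: in experiments 1 and 2 Ifng alone reached a mean of 10, in experiment 2, with 8.77 and 7.00 in depleted libraries, 18.7, 20.5 and 26.1 in toxin control ones and 15.8 to 25.8 in untreated ones. Of 52 further interferon-induced genes tested, 8 passed as lower (4.49% of all genes) and 1 as higher (4.58%) in depleted cells against the toxin control. In the toxin control against untreated cells, 7 of these 52 passed as higher (7.32% of all genes) and 4 as lower (8.34%). Among them were the ubiquitin ligase gene Rnf213 and the helicase gene Mov10, lower in depleted cells than in the toxin control by log2 fold changes of -0.92 and -0.91. Ms4a4c went the other way, at 0.48. In depleted against untreated cells, 0 genes of these pathway lists passed in either experiment.

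The last comparison sets immature B cells cultured together with γδ T cells beside immature B cells cultured alone. The 39 tested members had mean levels of 7.79, 7.28 and 7.26 with γδ T cells, against 7.55, 7.48 and 7.31 alone, and the groups overlap. In this test 0 of 39 members passed, beside 2.16% of all 12386 genes (1.1% higher and 1.06% lower). At an unadjusted p under 0.05, 2 were higher and 1 was lower, beside 12.6% of all genes in either direction. EdgeR called 0 members and DESeq2 called 1, Zbp1. The median log2 fold change was -0.01 and 21 of 39 were negative (53.8%, against 50.8% of all genes).

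Many members were low in culture. The median member with reads stood at the 45.7 percentile of protein-coding genes per kb of exon. The 7 members under the filter were Ifi44, Isg15, Oas2, Oas3, Rsad2, Ifit1 and Ifit3b. Isg15 had 14.6, 8.88 and 6.14 with γδ T cells, against 12.2, 6.70 and 3.74 alone, which are 15, 12 and 7 reads against 13, 8 and 3. Ifit1 had 1.94, 1.48 and 1.75 with γδ T cells, against 0, 0.837 and 3.74 alone. At this depth no difference in these genes was detectable.

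Zbp1 was the member with the smallest p. It had 197, 209 and 204 with γδ T cells, against 158, 119 and 121 alone. Its log2 fold change was 0.63 ± 0.16 (SE) and its adjusted p 0.067 in limma, outside the threshold. Without the library with γδ T cells numbered 3, Zbp1 passed as higher (2.21% of all genes) and Pml as lower (3.15%). Parp9, an ADP-ribosyltransferase that pairs with Dtx3l, had 670, 511 and 506 with γδ T cells, against 443, 471 and 405 alone (adjusted p = 0.314 in limma). Trim25 had 1389, 1357 and 1193 with γδ T cells, against 1556, 1787 and 1691 alone (log2 fold change -0.35, adjusted p = 0.175 in limma). These were the members whose groups did not overlap: 2 higher (7.94% of all genes) and 1 lower (10.4% of all genes). Dtx3l and Parp9 overlap on opposite strands over 682 bases, and their reads can be told apart there only if counting used strand.

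**Figure D5:**
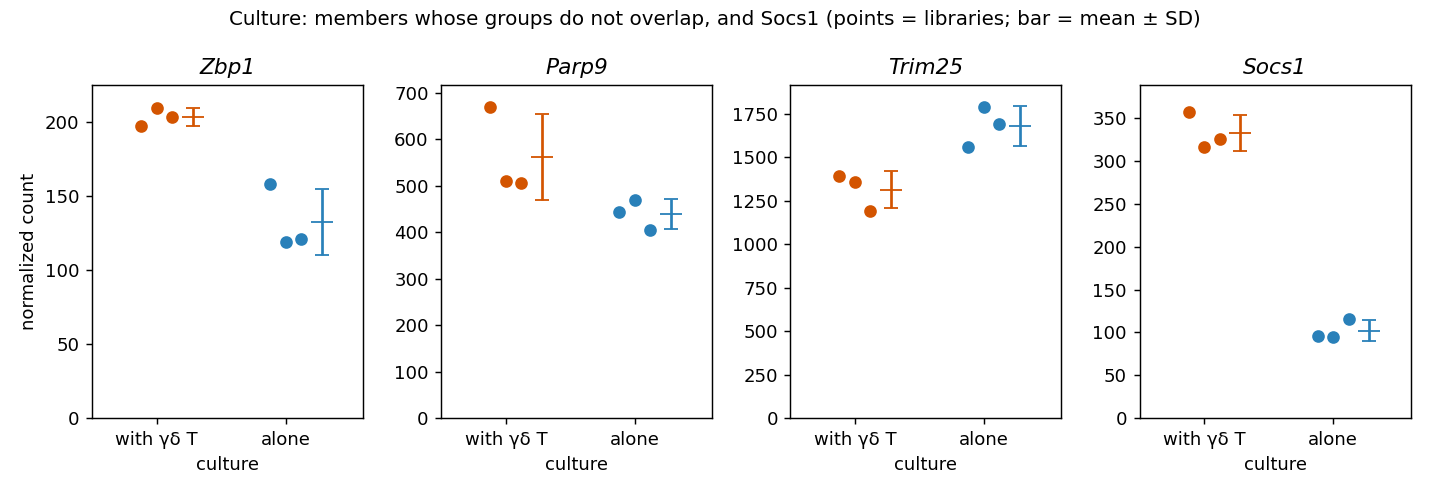
Normalized counts of Zbp1, Parp9, Trim25 and Socs1 in the 3 culture libraries with γδ T cells and the 3 alone (points), with mean ± SD (bars) and axes from 0. Zbp1 and Parp9 are higher and Trim25 lower with γδ T cells without overlap, none past the adjusted threshold, and Socs1 is higher and past it.

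The lowest log2 fold changes were those of Mx1 (-0.70, adjusted p = 0.411 in limma) and Oasl2 (-0.51, adjusted p = 0.806 in limma). Mx1 had 45.7, 25.2 and 17.5 with γδ T cells, against 51.4, 46.0 and 38.6 alone. Slfn5 had the second highest log2 fold change, 0.51 (adjusted p = 0.520 in limma). The library with γδ T cells numbered 1 was often high: it was the highest of the 6 libraries for 16 of 39 members (16.4% of all genes). Rtp4, a receptor-transporting protein gene, shows it most: it had 92.4, 11.1 and 6.14 with γδ T cells, against 25.2, 28.5 and 27.4 alone.

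Some genes of the pathway lists passed in culture: 1 of 11 of the receptor and JAK-STAT chain (Ifngr2), 1 of 5 brakes (Socs1) and 1 of 14 upstream sensing genes (Ikbke), each higher with γδ T cells. Socs1 had 357, 317 and 325 with γδ T cells, against 95.3, 94.6 and 116 alone, a log2 fold change of 1.70 ± 0.15 (SE, adjusted p = 4.68e-05 in limma). Ifngr2, a chain of the receptor for interferon gamma, averaged 1899 ± 58.4 with γδ T cells and 1291 ± 38.7 alone (log2 fold change 0.56, adjusted p = 0.018 in limma, n = 3 each). Ikbke, a kinase that activates IRF3, averaged 77.9 ± 12.4 with γδ T cells and 32.7 ± 9.85 alone (log2 fold change 1.26, adjusted p = 0.026 in limma). Ifng had 54.4, 68.1 and 64.9 with γδ T cells, against 119, 81.2 and 136 alone (adjusted p = 0.087 in limma). Of 47 further interferon-induced genes 1 passed, Trim30b, lower with γδ T cells. The 14 common T cell genes summed to 850 to 1038 with γδ T cells and 749 to 827 alone. Lck made up a large part of that sum, with 602, 517 and 419 with γδ T cells, against 337, 311 and 284 alone. Of the 12 genes tested, 8 had negative log2 fold changes and 4 positive ones (median -0.10). Among them 1 passed as higher (Lck) and 1 as lower (Cd5). The part of these genes in the members' values was not tested.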

How the data were processed

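The authors deposited 3 gene tables of normalized counts (a signal scaled in each table separately), and groups were compared only within a table. Reads were handled with bcl2fastq and STAR 2.5.2b on mm10, per the submitters' processing notes; per the labels' protocols RNA came from the RNeasy Plus Micro kit and libraries from a SMART-Seq stranded total RNA kit. For the counter, its strand setting, the annotation and the scaling method, the entry is: not given in the sources used here. Dividing each library's values by its smallest step gave whole reads for 100% of values (tolerance 0.01), and these reads served for library sizes and for edgeR and DESeq2.

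The test throughout was limma's moderated test (version 3.58.1 under R 4.3.3, prior variance following a trend) applied to log2(value + 1). Genes needed a table mean of at least 10, and calls needed Benjamini-Hochberg adjusted p under 0.05 over all tested genes. A log2 fold change on this scale understates the change of low genes. The 3 groups of experiment 2 were fitted together. Alternatives were edgeR 4.0.16, DESeq2 1.42.0, other pseudocounts, filters and scalings, a replicate block and leaving out each library. The limma step was checked on simulated data.

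The labels do not say whether libraries came from separate mice, so p-values reflect only how far these libraries differ, which may be technical. The members and gene lists were chosen with earlier results of these data known. Named genes were the called members with the smallest p (up to 12 a comparison), those with the 2 highest and 2 lowest log2 fold changes, 10 core members, and up to 4 called genes a list; others named, such as Helz2, Ifi44, Dtx3l, Parp9 and Rtp4 outside the calls, were chosen after their values were seen. Coordinates are from GENCODE M21 and promoters from RefSeq (both GRCm38); 12 members without a promoter entry were left out of the motif search. Some genes of the lists are not reported here.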

Additional observations from a re-analysis of the deposited data

Results flagged for a closer look

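Within the 5 untreated libraries of experiment 2, 5 members had 1 library far from the other 4, of 47 values examined (the 46 members and their mean). Chance alone flags about 1 in 20 such groups. In untreated replicate 8, Stat2 was low at 918.656, Ifi44 was low at 19.8023, Ifit1 was high at 135.172 and Adar was high at 3969.94 normalized counts. In untreated replicate 7, Ifit3 was low at 208.383. The directions in replicate 8 are mixed, and its mean level over the members (9.37) lies within the range of the untreated libraries (9.32 to 9.54). Replicate 8 also had the highest T cell transcripts of the untreated libraries, a sum of 2066, against 720 to 954 in the other 4; the part of these in its values was not tested. The groups with 2 or 3 libraries were too small to be examined in this way.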

How the results depend on the processing

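In experiment 1, 0 members passed under each alternative that keeps all libraries, and leaving out 1 library gave 0 to 8 lower, with medians of -0.27 to -0.11 and mean differences of -0.30 to -0.07. For depleted against untreated cells in experiment 2, DESeq2 called 1 lower and the T cell term 1 (both Ifi27l2a); leaving out 1 library gave 0 to 16 lower, medians of -0.50 to 0.027 and mean differences of -0.54 to 0.044. For depleted cells against the toxin control, fitting only the 2 groups called 6 lower and the T cell term 0; leaving out 1 library gave 0 to 30, medians of -0.75 to -0.15 and mean differences of -0.76 to -0.18. For the toxin control against untreated cells, testing genes with a mean above 0 called 9 higher (more genes tested), the T cell term 0, and DESeq2 called 1 lower (Ifi27l2a); leaving out 1 library gave 1 to 18 higher, 0 to 1 lower, medians of 0.19 to 0.27 and mean differences of 0.19 to 0.26. In culture DESeq2 called 1 higher (Zbp1), and leaving out 1 library gave 0 to 1 higher, 0 to 1 lower, medians of -0.10 to 0.11 and mean differences of -0.18 to 0.088. The culture median was positive with a minimum mean of 50 (0.00018), quantile normalization (0.0083), TMM (0.0057), edgeR (0.037) and DESeq2 (0.038). The culture mean difference was positive with a pseudocount of 10 (0.015), a mean above 0 (0.0092), a minimum mean of 50 (0.048), quantile normalization (0.0090), TMM (0.014), edgeR (0.057) and DESeq2 (0.061). Where no construction is named, the cause was not tested.

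Same-numbered libraries did not deviate together in every pair of any comparison: their correlations were -0.02, -0.04 and 0.05 in experiment 1, -0.07 and -0.11 in experiment 2 and 0.20, -0.04 and 0.23 in culture, so the numbers were not taken to pair libraries. With the replicate block 0 members passed in experiment 1, 2 as lower in experiment 2 (Ifi27l2a and Mx2) and 1 as higher in culture (Zbp1), and Ifit3 turned to -0.018 in depleted against untreated cells of experiment 2.

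Some single genes changed sign. With the T cell term, Ly6a was -0.018 against the toxin control, and Ifi27l2a was 0.039, Irf7 0.12 and Bst2 0.072 in the toxin control against untreated cells. Leaving out 1 library, log2 fold changes in experiment 1 ran from -0.23 to 0.49 for Isg15, -0.026 to 0.17 for Stat2, -0.24 to 0.30 for Mx1, -0.31 to 0.21 for Ifit3, -0.59 to 0.019 for Usp18, -0.36 to 0.16 for Irf7 and -0.083 to 0.45 for Ifit3b. In depleted against untreated cells of experiment 2 they ran from -0.39 to 0.63 for Ifit3 and -0.74 to 0.17 for Oasl2. Against the toxin control they ran from -0.68 to 0.34 for Ifit3, -0.27 to 0.60 for Ifit3b and -0.074 to 0.063 for Ly6a. In the toxin control against untreated cells they ran from -0.080 to 0.13 for Usp18, -0.057 to 0.086 for Stat2 and -0.40 to 0.052 for Isg15. In culture they ran from -0.16 to 0.15 for Stat2, -0.68 to 0.21 for Ifit3, -0.18 to 0.21 for Ly6a, -0.17 to 0.53 for Irf7, -1.17 to 0.15 for Oasl2 and -0.52 to 0.20 for Usp18. The 7 culture members with a mean under 10 were not tested in the main fit. With genes of a mean above 0, all 46 were tested in culture and 0 passed.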
